A study of Mus musculus with 15 samples.

Results

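Acute-phase proteins are plasma proteins that the liver releases in larger amounts within hours of infection or injury. The genes followed here are 10 of them, chosen by symbol: the serum amyloid A genes Saa1, Saa2, Saa3 and Saa4, the orosomucoid genes Orm1, Orm2 and Orm3, haptoglobin (Hp), lipocalin-2 (Lcn2) and serum amyloid P component (Apcs). All 10 were among the 21702 genes of the count table, and all 10 passed the filter on low counts that left 12172 genes to test. The libraries came from livers of wild-type C57BL/6 female mice (substrain C57BL/6N in the study's methods) aged 8 to 14 weeks, with 3 livers in each of 5 groups. Every mouse, controls included, had been given an adeno-associated virus (AAV8) in the tail vein: either the control AAV8-null or AAV8-p21. The latter carries a mouse p21 cDNA, encoding a cell cycle inhibitor, under the TBG promoter, which is active in hepatocytes. AAV8-null livers were taken from non-pregnant (NP) mice and at 8 and 16 days post coitum (dpc), and AAV8-p21 livers at 8 and 16 dpc. Livers without virus and NP livers with AAV8-p21 were not analysed here, so every change with pregnancy is one among virus-treated animals.

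In the classical acute-phase response, interleukin-6 acts on hepatocytes through its receptor, Jak kinases and Stat3, while interleukin-1 and tumour necrosis factor act through NF-kappaB and C/EBP factors. Saa1 and Saa2 are the most inducible of these genes in the mouse and their proteins travel on high-density lipoprotein. Saa4 is the constitutive family member, and Saa3 is expressed mainly by macrophages and adipocytes. The orosomucoids bind lipophilic compounds in plasma, haptoglobin captures free haemoglobin, lipocalin-2 withholds iron by binding bacterial siderophores, and serum amyloid P component is the main acute-phase pentraxin of the mouse.

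The 4 Saa genes lie side by side on chromosome 7 of GRCm38 (mm10) in the GENCODE M21 annotation. Saa3 spans 46711998 to 46715700, Saa4 46727998 to 46732603 and Saa1 46740497 to 46742980, all on the minus strand, and Saa2 spans 46751790 to 46754313 on the plus strand. The Orm genes lie together on the plus strand of chromosome 4, with Orm1 at 63344560 to 63348163, Orm3 at 63356162 to 63359511 and Orm2 at 63362449 to 63365878. Hp is on chromosome 8 (109575128 to 109579172, minus strand), Lcn2 on chromosome 2 (32384633 to 32388252, minus strand) and Apcs on chromosome 1 (172893961 to 172895041, minus strand). No other annotated gene overlaps any of the 10.

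The copies resemble each other, which matters for counts of uniquely mapped reads. The coding sequences of Saa1 and Saa2 were 95.1% identical, those of Orm1 and Orm2 89.9%, those of Orm2 and Orm3 88.3%, and those of Orm1 and Orm3 86.4%. Saa4 was the most distant Saa gene, at 68.8% to 69.6% identity with the others. Of all 86-base stretches of the coding transcripts (the read length), 2.67% of Saa1's and 2.24% of Saa2's were present in both genes, as were 10.9% of those of Orm1 and Orm2. In Saa3, 0.794% occurred in genes outside the family, and none of those of Orm3, Saa4, Hp, Lcn2 or Apcs occurred in another gene's transcripts. The counts of Saa1, Saa2, Orm1 and Orm2 are therefore partial, and their split between copies is uncertain to that extent.

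RefSeq windows of 250 bases before the transcription start (GRCm38.p6) were found for 8 of the 10 genes, not for Orm1 and Hp. They were searched on both strands for 4 motifs: STAT3 (TTCNNNGAA), C/EBP (TTGCNNAA), glucocorticoid receptor (ACANNNTGT) and NF-kappaB. The C/EBP letters were in 7 of the 8 windows, against 9.56% of all 32851 windows of that length. The STAT3 letters were in 1 (Apcs, against 7.02% of all windows), the glucocorticoid receptor letters in 2 (Orm3 and Lcn2, against 5.84%) and the NF-kappaB letters in 0 (against 4.11%). A match is a description of these letters, and neighbouring copies are related in sequence, so the windows are not independent. Sites that differ from the letters by even 1 base were not searched for, so a window without a match can still hold a site.

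The stretches from 250 to 101 bases before the start are printed for the 4 genes that stood out most in a single liver together with a close copy, and for Apcs, the gene with the STAT3 letters, at chr7:46743081-46743230 (Saa1, minus strand), chr7:46751583-46751732 (Saa2, plus strand), chr4:63362199-63362348 (Orm2, plus strand), chr4:63355908-63356057 (Orm3, plus strand) and chr1:172895155-172895304 (Apcs, minus strand). Capitals mark the C/EBP letters in the Saa and Orm stretches and the STAT3 letters in Apcs.
Saa1: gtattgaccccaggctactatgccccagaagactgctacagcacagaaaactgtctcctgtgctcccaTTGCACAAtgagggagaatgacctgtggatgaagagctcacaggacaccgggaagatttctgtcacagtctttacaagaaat
Saa2: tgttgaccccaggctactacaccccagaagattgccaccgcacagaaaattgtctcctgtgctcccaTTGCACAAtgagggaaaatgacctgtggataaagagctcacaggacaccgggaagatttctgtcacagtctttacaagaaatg
Orm2: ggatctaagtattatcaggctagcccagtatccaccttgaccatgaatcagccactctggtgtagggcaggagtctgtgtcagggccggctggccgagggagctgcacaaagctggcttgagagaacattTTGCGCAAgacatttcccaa
Orm3: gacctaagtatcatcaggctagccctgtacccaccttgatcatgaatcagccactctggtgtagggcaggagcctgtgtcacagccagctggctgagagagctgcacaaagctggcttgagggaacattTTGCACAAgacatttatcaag
Apcs: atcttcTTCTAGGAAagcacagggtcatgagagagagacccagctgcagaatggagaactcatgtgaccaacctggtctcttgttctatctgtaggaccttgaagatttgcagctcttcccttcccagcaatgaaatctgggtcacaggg
The Saa1 and Saa2 stretches were identical at 140 of 149 aligned bases (94.0%), and the Orm2 and Orm3 stretches at 134 of 149 (89.9%). The shared TTGCACAA of Saa1 and Saa2 begins 182 and 183 bases before the start. In Saa3 the C/EBP letters read TTATGCAA, in Lcn2 TTGCTCAA, and Saa4 has them at 2 places.

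The libraries held 12280709 to 17615185 counts. The unit of level is CPM, a count divided by its library size, after TMM, edgeR's factor for differences in composition between libraries. The factor was 0.682 to 0.839 in the 16 dpc livers and 1.10 to 1.25 in all others, so scaling by library totals alone moves the median log2 fold change of all genes from −0.03 to −0.70 in the AAV8-null livers at 16 dpc against NP. All 6 hepatocyte markers, Alb among them, were present in every liver. Their sum was 76500 to 125000 CPM in every NP and 8 dpc liver and 263000 to 425000 CPM in every 16 dpc liver, so it moved with the 16 dpc changes, and its part in them was not tested. Alb made up most of the sum, with a mean of 88400 CPM in NP and 357000 CPM at 16 dpc in AAV8-null livers. It was the 1 marker of the 6 that rose there (6.52% of all genes called), while Ass1, an enzyme of the urea cycle, fell by 1.07 on the log2 scale and the other 4 did not pass. The p21 gene, Cdkn1a, was at 347 to 1660 CPM in the 6 AAV8-p21 livers and at 3.29 to 127 CPM in the 9 AAV8-null livers. The labels do not say that the livers of a group came from separate litters or experiments, so p-values measure only the spread between these samples. In whole liver, fewer cells of a type and less RNA per cell cannot be told apart.

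The second AAV8-null liver at 8 dpc stood apart in these genes. It was the highest of all 15 livers for 7 of the 10, and the highest of its group for 9, the exception being Hp. The share of all genes highest there was not counted. Saa1 was at 869 CPM there, 20.7-fold above the next highest liver (42.1 CPM), and Saa2 at 596 CPM, 29.8-fold above the next (20.0 CPM). They were the only 2 of the 12172 genes tested that exceeded every other liver at least 4-fold in this liver. Lcn2 (297 against 81.9 CPM, 3.62-fold), Orm2 (454 against 157 CPM, 2.89-fold) and Orm3 (32.9 against 15.5 CPM, 2.12-fold) also led the next liver there. Folds over the next liver are ratios of unrounded CPM. The 10 genes took 0.873% of that library's counts and 0.263% to 0.469% of every other. The second AAV8-null liver at 16 dpc had 7 genes at least 4-fold above every other liver (log2 CPM, pseudocount 0.5). Results that rest on the second AAV8-null liver at 8 dpc are given with and without it.

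**Figure D1:**
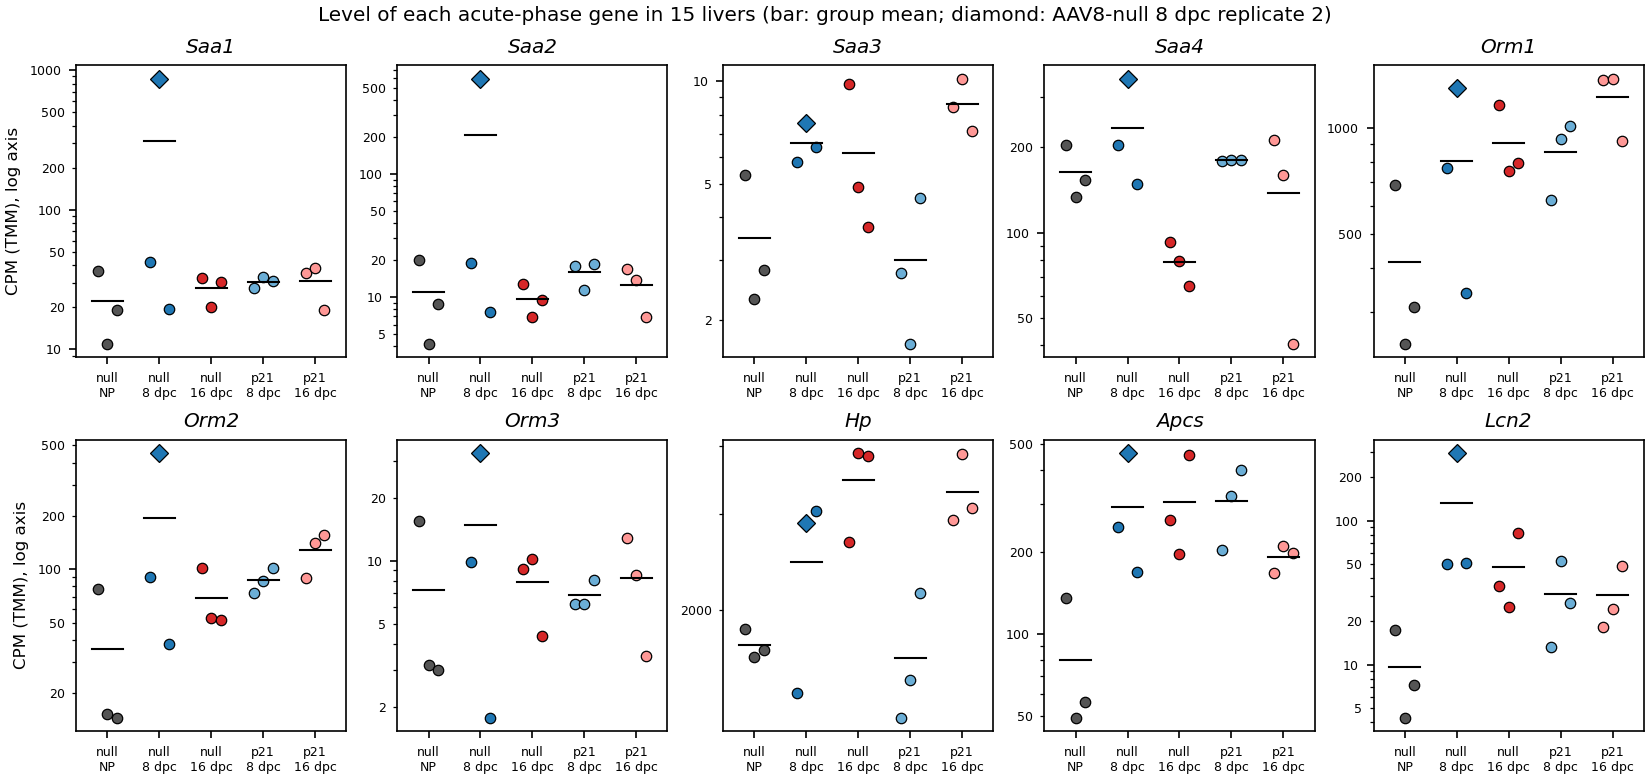
CPM (TMM, log axis) of each of the 10 genes in the 15 livers, by group, with bars at the group means and a diamond for the second AAV8-null liver at 8 dpc. The diamond is 20.7-fold above the next highest liver for Saa1 and 29.8-fold for Saa2, while Hp is higher in the 16 dpc groups and Saa4 is lowest in AAV8-null livers at 16 dpc and in 1 AAV8-p21 liver.

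Compared per kilobase of the longest coding transcript, Hp and Orm1 were the most abundant of the 10. In the NP livers Hp was at 1280 ± 81.6 CPM per kb (mean ± SD, n = 3) and Orm1 at 535 ± 310. Apcs followed at 82.4 ± 49.2, Saa4 at 78.3 ± 17.2, Orm2 at 46.0 ± 46.5 and Saa1 at 36.3 ± 21.2. Saa2 was at 16.9 ± 12.4, Lcn2 at 10.5 ± 7.48, Orm3 at 9.35 ± 9.27 and Saa3 at 1.58 ± 0.737 CPM per kb. The steps from Hp to Orm1, from Orm1 to Apcs and from Orm3 to Saa3 were free of overlap between livers, while the neighbours from Apcs down to Orm3 overlapped. Over all 15 livers Hp ranked highest in 14 and Orm1 in 1, and Saa3 ranked lowest in 14 and Orm3 in 1. In the second AAV8-null liver at 8 dpc, Saa1 (1430 CPM per kb) and Saa2 (914) were in places 3 and 4, behind Hp and Orm1.

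Few of the 10 genes differed from the NP livers in the test. At 16 dpc 1 of the 10, Apcs, passed the test in AAV8-null livers (edgeR quasi-likelihood, adjusted p under 0.05), where 6.52% of all genes did and 3.71% did so by rising. At an unadjusted p under 0.05 there were 5, where 21.2% of all genes were. Without the second AAV8-null liver at 8 dpc 2 passed, Lcn2 and Apcs (5.83% of all genes). At 8 dpc 0 of 10 passed, where 0% of all genes did, although 7 had an unadjusted p under 0.05 (6.60% of all genes), DESeq2 called 4 (0.574% of all genes it tested) and limma voom 8 (15.2%). Without the second AAV8-null liver at 8 dpc, 2 of those 7 kept an unadjusted p under 0.05, where 439 of 12393 genes had one. Between 8 and 16 dpc 2 of 10 fell, Saa2 and Saa4 (6.87% of all genes were called, 3.71% lower), 3 had an unadjusted p under 0.05 (22.7% of all genes), and 0 were called without that liver (2.08% of all genes). The median log2 fold change of the 10 at 16 dpc against NP was 0.89, beside −0.03 for all genes tested.

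Groups that did not overlap were counted too. At 16 dpc, 4 of the 10 (Orm1, Hp, Lcn2 and Apcs) were higher in all 3 AAV8-null livers than in all 3 NP livers, where 12.1% of all genes were, and 1 (Saa4) was lower in all, where 12.5% were. This count depends on the scaling. On library totals, whose median gene is at −0.70, those 4 overlapped with NP and Saa4 stayed lower in all. Apcs, for example, then had 134 CPM in 16 dpc liver 2 beside 153 CPM in NP liver 1. From 8 to 16 dpc 1, again Saa4, was lower in all, where 12.9% of all genes were. At 8 dpc, 3 (Saa3, Lcn2 and Apcs) were higher in all, where 4.69% of all genes were. The first NP liver had the highest level of its group for all 10 genes, which widens the spread of the reference group for every one of them. The share of all genes highest in that liver was not counted.

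Saa1, the leading inducible serum amyloid A, measured 36.3, 11 and 19.1 CPM in the NP livers. The AAV8-null livers at 8 dpc had 42.1, 869 and 19.6 CPM, and those at 16 dpc had 32.2, 20.0 and 30.3 CPM. Apart from the liver at 869 CPM, the groups overlapped. The log2 fold change at 8 dpc against NP was 3.81 ± 1.02 (SE, adjusted p = 0.315) with all livers and 0.48 ± 0.44 without that one, and at 16 dpc it was 0.32 ± 0.93. From 8 to 16 dpc it was −3.50 ± 1.01 (adjusted p = 0.0518), and −0.17 ± 0.44 without that liver.

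Saa2, its near-identical neighbour, measured 20.0, 4.2 and 8.88 CPM in the NP livers. The 8 dpc livers had 18.8, 596 and 7.59 CPM and the 16 dpc livers 12.7, 6.92 and 9.52 CPM. For Saa2, 2 of the 3 livers at 8 dpc lay within the range of the NP livers. The fall from 8 to 16 dpc passed the test with all livers (log2 fold change −4.42 ± 1.20, adjusted p = 0.0414) and not without that liver (−0.44 ± 0.56, adjusted p = 0.770). The call was also lost without any 1 of the 3 livers at 16 dpc. Saa2 made up 23.9% to 40.7% of the Saa1 and Saa2 counts, and the highest share was in that same liver. Summed to 1 feature, Saa1 and Saa2 gave a log2 fold change of −3.80 ± 1.07 from 8 to 16 dpc (adjusted p = 0.0472) with all livers and −0.24 ± 0.47 (adjusted p = 0.863) without the second liver at 8 dpc.

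Saa3, the family member of macrophages and adipocytes, was the scarcest, with 30 to 141 counts per library. Its NP livers had 5.33, 2.31 and 2.80 CPM, the AAV8-null livers at 8 dpc 5.82, 7.56 and 6.45 CPM and those at 16 dpc 9.81, 4.92 and 3.74 CPM. All 3 livers at 8 dpc were above all NP livers, but the difference did not pass the test (log2 fold change 0.93 ± 0.40, adjusted p = 0.662). In the second liver at 8 dpc Saa3 (7.56 CPM) was below the highest livers of both 16 dpc groups.

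Saa4, the constitutive member, went the other way at 16 dpc. The NP livers had 204, 134 and 154 CPM, the 8 dpc livers 204, 350 and 148 CPM and the 16 dpc livers 92.9, 79.6 and 64.6 CPM. The 3 livers at 16 dpc were below every other AAV8-null liver. The fall from 8 dpc passed the test narrowly (log2 fold change −1.57 ± 0.45, 95% interval −2.52 to −0.61, adjusted p = 0.0496) and kept its direction without the second liver at 8 dpc (−1.16 ± 0.45, adjusted p = 0.222). It was lost, too, without 8 dpc liver 1 (adjusted p = 0.0991) and without any 1 of the 3 livers at 16 dpc. Against NP the log2 fold change was −1.05 ± 0.44 (adjusted p = 0.187), and on library totals, where the median gene is at −0.70, it was −1.73 (adjusted p = 0.006).

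Orm1 carried most of the orosomucoid counts, 72.7% to 94.7% of the 3 genes' total. The NP livers had 690, 244 and 311 CPM, the 8 dpc livers 771, 1300 and 340 CPM and the 16 dpc livers 1160, 753 and 796 CPM. The 3 livers at 16 dpc were above all NP livers, with a log2 fold change of 1.12 ± 0.45 that did not pass the test (adjusted p = 0.163). The 8 dpc livers overlapped with both other groups.

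Orm2 measured 77.2, 15.2 and 14.5 CPM in the NP livers, 90.6, 454 and 37.8 CPM in the 8 dpc livers and 102, 53.2 and 51.6 CPM in the 16 dpc livers. Its share of the orosomucoid counts was 25.4% in the second liver at 8 dpc and 4.43% to 14.5% in the other 14. The log2 fold change at 8 dpc against NP was 2.45 ± 0.78 (adjusted p = 0.422) with that liver and 0.85 ± 0.61 without it. Orm3, the rarest orosomucoid, measured 15.5, 3.17 and 3.01 CPM in the NP livers, 9.84, 32.9 and 1.77 CPM in the 8 dpc livers and 9.09, 10.2 and 4.36 CPM in the 16 dpc livers. Its groups overlapped throughout.

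Hp, the haemoglobin scavenger and most abundant of the 10, had the tightest NP group, at 1850, 1640 and 1690 CPM. The AAV8-null livers at 8 dpc had 1410, 2890 and 3040 CPM and those at 16 dpc had 2660, 3880 and 3820 CPM. All 3 livers at 16 dpc were above all NP livers, by a log2 fold change of 1.0 ± 0.29 (95% interval 0.38 to 1.62) that did not reach the threshold (adjusted p = 0.0569). DESeq2 (adjusted p = 0.00865) and limma voom (adjusted p = 0.0252) did call it. On library totals the log2 fold change was 0.33, against a median gene at −0.70.

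Apcs, the pentraxin, was the only gene of the 10 that rose from NP to 16 dpc in the test. The NP livers had 135, 49.0 and 55.9 CPM, the 8 dpc livers 248, 464 and 169 CPM and the 16 dpc livers 263, 197 and 454 CPM. Every pregnant AAV8-null liver was above every NP liver. The log2 fold change at 16 dpc was 1.93 ± 0.45 (3.81-fold, 95% interval 0.96 to 2.90 in log2, adjusted p = 0.0198), and on library totals it was 1.32 (adjusted p = 0.0253). At 8 dpc it was 1.88 ± 0.45 (adjusted p = 0.295), and 1.39 ± 0.44 without the second liver. The levels at 8 and 16 dpc differed by a log2 fold change of 0.05 (95% interval −0.88 to 0.98), and of 0.54 (−0.42 to 1.51) without the second liver at 8 dpc. The call at 16 dpc was lost in a fit of the 2 groups alone (adjusted p = 0.0653) and without NP liver 2, NP liver 3 or 16 dpc liver 3 (adjusted p = 0.0923, 0.0916 and 0.0825). It was also lost when the replicate number was added to a fit of the 12 numbered libraries.

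Lcn2, the siderophore binder, measured 17.3, 4.26 and 7.20 CPM in the NP livers. The 8 dpc livers had 49.9, 297 and 51.1 CPM and the 16 dpc livers 35.4, 25.1 and 81.9 CPM. All 6 pregnant AAV8-null livers were above the NP livers. The log2 fold change was 3.79 ± 0.82 at 8 dpc (adjusted p = 0.264), or 2.40 ± 0.65 without the second liver (adjusted p = 0.911), and 2.31 ± 0.77 at 16 dpc (adjusted p = 0.0976). Without that liver, which is in neither group compared at 16 dpc but enters the shared estimate of the spread, Lcn2 at 16 dpc passed (adjusted p = 0.0418). With 1 library left out, its log2 fold change at 16 dpc ran from 1.66 to 3.05.

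Lcn2 is also a granule protein of neutrophils, so their markers were read beside it. Of 12 neutrophil and myeloid precursor markers 5 passed the filter, and 3 of these, S100a8, S100a9 and Retnlg, rose from NP to 16 dpc in AAV8-null livers by log2 fold changes of 3.99, 3.77 and 3.80, where 6.52% of all genes were called and 3.71% rose. The 12 summed to 2.31 to 5.75 CPM in NP, 7.62 to 22.4 at 8 dpc and 8.50 to 38.9 at 16 dpc in AAV8-null livers, and to 3.48 to 6.51 at 8 dpc and 4.68 to 9.52 at 16 dpc in AAV8-p21 livers. Ly6g, the defining surface marker, had at most 1 count in any library. The AAV8-null liver at 16 dpc with the highest Lcn2 (81.9 CPM) had the highest neutrophil sum, 38.9 CPM, whereas the second liver at 8 dpc, with Lcn2 at 297 CPM, had the lowest sum of its group, 7.62 CPM. Prtn3, a granule protease of neutrophils and their precursors that was not on the list, went the other way there, at 17.3 CPM against 4.79 CPM in the next highest liver. Over the 14 livers without the second at 8 dpc, S100a9 was among the 3 tested genes outside the 10 most like Lcn2 (Pearson's r of log2 CPM 0.815). The part of these cells in the Lcn2 levels was not tested.

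**Figure D2:**
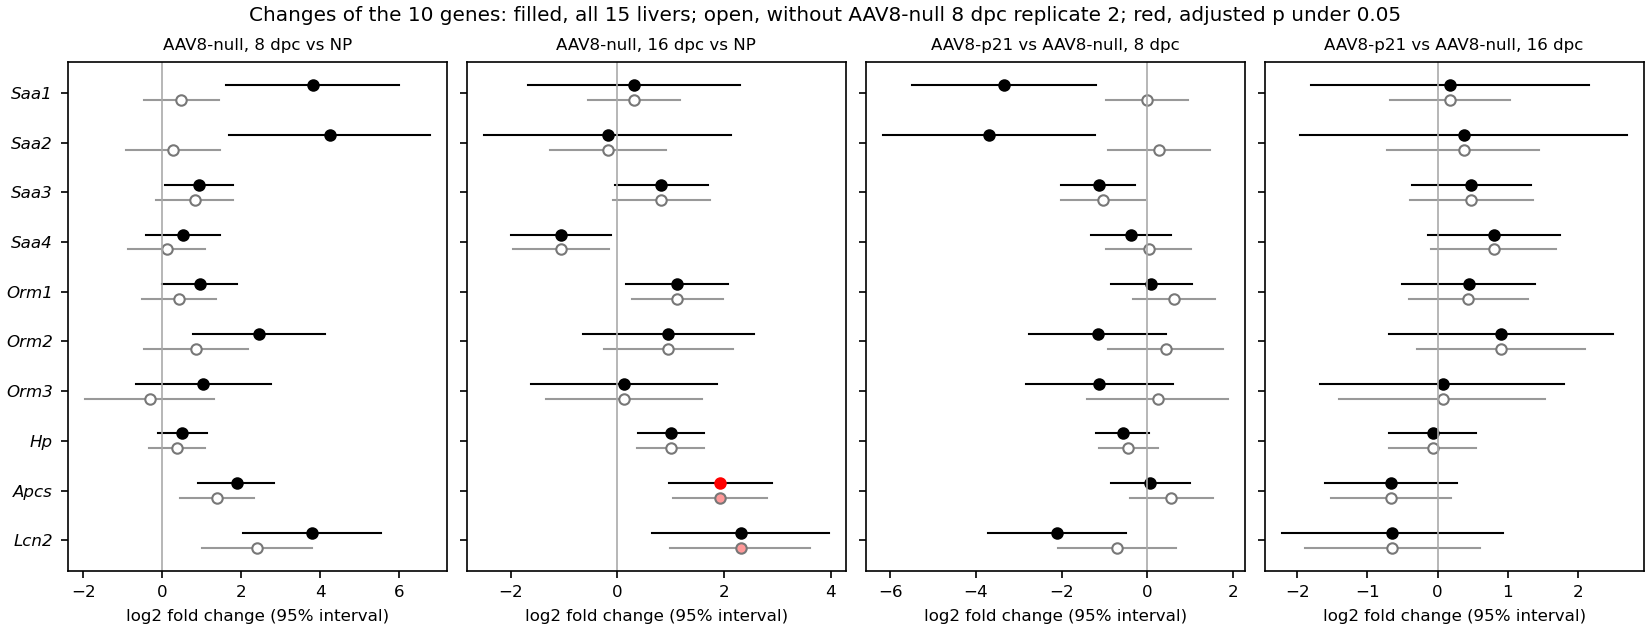
Log2 fold change of each gene with its 95% interval in 4 comparisons, filled for all 15 livers and open without the second AAV8-null liver at 8 dpc, with red for adjusted p under 0.05. Saa1 and Saa2 move from 3.81 and 4.24 to 0.48 and 0.26 at 8 dpc against NP when that liver is left out, and Apcs is red at 16 dpc either way.

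AAV8-p21 was compared with AAV8-null at each stage to ask whether holding back hepatocyte division changed these genes. At 16 dpc 0 of 10 passed the test in edgeR, DESeq2 or limma voom, where 0.0739%, 1.06% and 0.961% of all genes passed, and 0 had an unadjusted p under 0.05 in edgeR (9.77% of all genes). Without the second AAV8-null liver at 8 dpc 0 passed as well (0.0565% of all genes). The log2 fold changes ran from −0.67 for Apcs to 0.90 for Orm2, and every gene's groups overlapped, where 6.65% of all genes were higher and 7.02% lower in all AAV8-p21 livers. The intervals stay wide: Hp was known best (−0.69 to 0.54) and Saa2 least (−1.96 to 2.69). A difference of 2-fold in either direction is within the interval for Saa1, Saa2 and Orm3. The second AAV8-null liver at 8 dpc enters these only through the shared spread. Without it the intervals were −0.68 to 1.03 for Saa1, −0.72 to 1.45 for Saa2 and −1.40 to 1.53 for Orm3. Among these, only that of Orm3 still held a 2-fold difference in either direction.

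Apcs measured 167, 211 and 198 CPM in the AAV8-p21 livers at 16 dpc, beside 197 to 454 CPM in AAV8-null. Its log2 fold change was −0.67 (95% interval −1.60 to 0.27). Saa4 had 213, 160 and 40.6 CPM in AAV8-p21 livers beside 64.6 to 92.9 CPM in AAV8-null, a log2 fold change of 0.80 (95% interval −0.14 to 1.74). One of the 3 AAV8-p21 livers was below all AAV8-null livers for Saa4 and the other two were above.

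At 8 dpc 0 of 10 passed in edgeR or DESeq2 and 1 (Saa3) in limma voom, where 0.0246% of all genes passed in edgeR, 0.204% in DESeq2 and 0.863% in voom. At an unadjusted p under 0.05 there were 4 (Saa1, Saa2, Saa3 and Lcn2, all lower with p21, against 5.18% of all genes). Without the second AAV8-null liver there was 1, Saa3, beside 598 of 12393 genes, and 0 passed (0.0161% of all genes). The log2 fold change of Saa1 was −3.34 ± 1.0 with that liver and −0.01 ± 0.44 without it, and that of Saa2 −3.70 ± 1.15 and 0.27 ± 0.55. The AAV8-p21 livers had 27.7, 33.2 and 31.0 CPM of Saa1 and 17.8, 11.5 and 18.6 CPM of Saa2, each between the other 2 AAV8-null livers (19.6 and 42.1 CPM, and 7.59 and 18.8 CPM). Lcn2 measured 13.2, 52.6 and 26.8 CPM, and its log2 fold change was −2.10 ± 0.76 (adjusted p = 0.764), or −0.71 ± 0.64 without that liver.

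Saa3 was the gene of the 10 with the lowest unadjusted p for a difference between stages in the p21 effect. The 8 dpc livers had 2.76, 1.71 and 4.55 CPM, below all 3 AAV8-null livers of that stage, where 4.49% of all genes were (log2 fold change −1.14 ± 0.41, adjusted p = 0.758). The 16 dpc livers had 8.43, 10.2 and 7.14 CPM, above all AAV8-p21 livers at 8 dpc (log2 fold change 1.52 ± 0.41, adjusted p = 0.0566). The test of the difference between stages in the p21 effect gave 1.63 ± 0.57 in log2 (unadjusted p = 0.0120, adjusted p = 1). Of the 10 genes 0 passed that test in edgeR, DESeq2 or limma voom, 3 (Saa1, Saa2 and Saa3) had an unadjusted p under 0.05 (3.09% of all genes), and 0% of all genes passed. Without the second AAV8-null liver at 8 dpc 1, Saa3, kept it, at 1.52 ± 0.61, where 307 of 12393 genes had an unadjusted p under 0.05. The summed markers of Kupffer cells and macrophages, cells that express Saa3, were 451 to 589 CPM in AAV8-p21 livers at 8 dpc and 244 to 536 at 16 dpc. None of the 9 markers was at 0 in any library, and none passed the test between these stages in edgeR. Adipocytes, the other source, left 3 to 5 of their 6 markers at 0 in each library. The part of these cells in the Saa3 levels was not tested.

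From 8 to 16 dpc in AAV8-p21 livers, 0 of 10 passed in edgeR (3.32% of all genes passed) and 2 had an unadjusted p under 0.05 (16.4% of all genes), Saa3 and Hp, which DESeq2 (6.16% of all genes) and limma voom (14.9%) both called. These 2 were also the only ones higher in all livers at 16 dpc, where 11.5% of all genes were. On library totals Saa3 stayed so and Hp overlapped (2280 CPM in a 16 dpc liver beside 2370 CPM in an 8 dpc liver). Hp measured 1270, 1490 and 2150 CPM at the earlier stage and 2920, 3860 and 3070 CPM at the later one (log2 fold change 1.0 ± 0.29, adjusted p = 0.0792).

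The AAV8-p21 livers at 16 dpc were also set against the NP AAV8-null livers, a comparison that differs in both virus and pregnancy and shares its NP livers with the comparisons above. There 0 of 10 passed in edgeR (3.81% of all genes), 6 had an unadjusted p under 0.05 (16% of all genes), DESeq2 called 3 (6.07% of all genes) and limma voom 6 (19%). Without the second AAV8-null liver at 8 dpc 0 passed (3.39% of all genes). The same 6 (Saa3, Orm1, Orm2, Hp, Lcn2 and Apcs) were higher in all 3 livers than in all NP livers, where 9.95% of all genes were. On library totals only Hp stayed without overlap. Orm1, at 1370, 1380 and 920 CPM, had a log2 fold change of 1.56 ± 0.45 (adjusted p = 0.0728) beside 1.12 ± 0.45 in AAV8-null livers. Orm2, at 89.5, 141 and 157 CPM, had 1.86 ± 0.77 beside 0.95 ± 0.75. With 1 library left out the value for Orm2 ran from 1.49, without NP liver 2 or NP liver 3, to 3.12, without NP liver 1 (adjusted p = 0.0464). Hp had 0.93 ± 0.29 beside 1.0 ± 0.29, and Apcs 1.26 ± 0.44 beside 1.93 ± 0.45.

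Across livers, the genes followed each other unevenly. Pearson's r of log2 CPM over the 15 livers, which pools groups and is a description only, was 0.983 for Saa1 with Saa2 and 0.890 without the second AAV8-null liver at 8 dpc. Orm1 and Orm2 had 0.861, and Lcn2 and Apcs 0.834. Saa1 had 0.756 with Orm2 and 0.731 with Lcn2 (0.705 and 0.496 without that liver), but 0.140 with Hp. Saa4 had −0.426 with Hp. All levels share the library's depth and scaling.

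**Figure D3:**
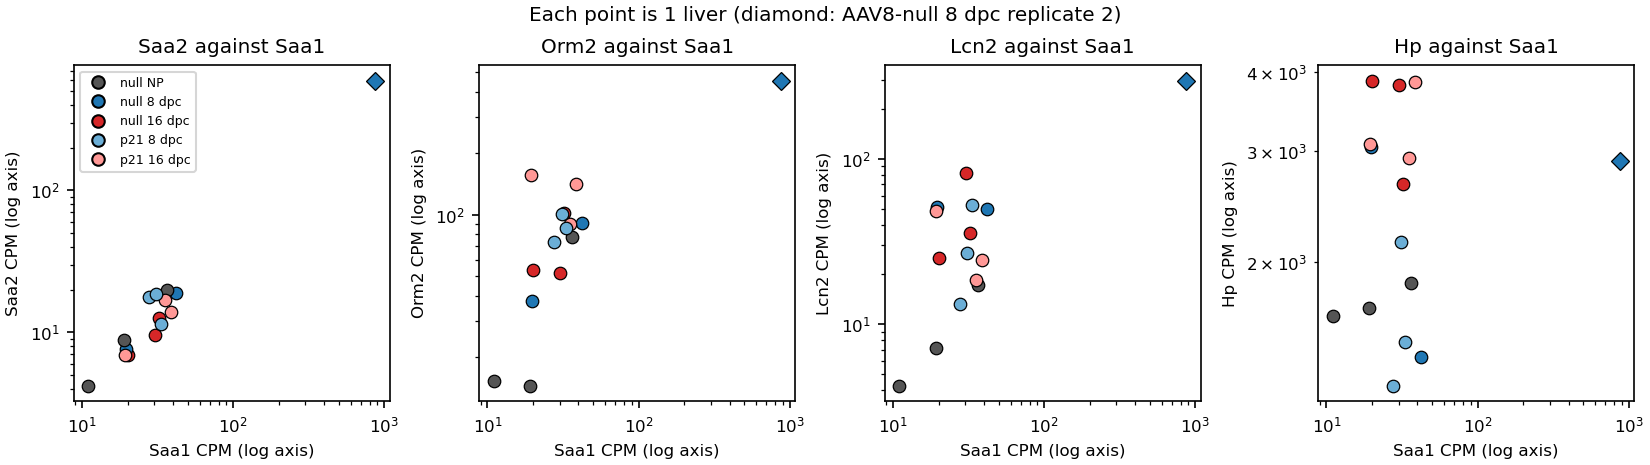
CPM of Saa2, Orm2, Lcn2 and Hp against Saa1 (both axes log), with 1 point per liver and a diamond for the second AAV8-null liver at 8 dpc. Saa2 runs along Saa1 (r = 0.983 in log2 CPM), while Hp spans 1270 to 3880 CPM with no relation to Saa1 (r = 0.140).

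Outside the 10, the tested genes whose pattern over the 15 livers was most alike were named by r of log2 CPM. They were Prg4, Gins2 and Neurl1b for both Saa1 (r = 0.797 to 0.812) and Saa2 (0.812 to 0.841). Without the second liver at 8 dpc the 3 genes most alike were all different for Saa1 (Cnih1, Thap1 and Tfpi2, 0.865 to 0.890), Saa2 (Plaat3, Qprt and B2m, 0.904 to 0.914), Saa3 (Psmb7, Gstp1 and Prpsap1, 0.807 to 0.827), Orm2 (Aldh3b3, Taf15 and Fabp12, 0.887 to 0.918) and Orm3 (Mpst, Gamt and Ctsb, 0.889 to 0.909), and partly different for the other five. For Lcn2 they were then Lrg1, S100a9 and Utp23 (0.802 to 0.846). The names that follow are those over all 15 livers. For Saa3 they were Clu, Ctsa and Bin3 (0.765 to 0.788), and for Saa4 Slfn9, Slc25a23 and Ss18l1 (0.927 to 0.953). Orm1 was most like Sec61g, Chid1 and Ifi27l2b (0.933 to 0.947), Orm2 like Tmem176a, Gltpd2 and Tmem176b (0.829 to 0.862) and Orm3 like Nans, Nucb1 and Dct (0.833 to 0.841). Hp was most like Itih3, Grn and Pex14 (0.844 to 0.851), Lcn2 like Lrg1, Bet1 and Tmem39a (0.765 to 0.821) and Apcs like A1bg, Skap2 and Grb2 (0.850 to 0.878).

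Other acute-phase genes were read beside the 10. Of 26 other positive acute-phase genes tested, 17 rose and 1 fell from NP to 16 dpc in AAV8-null livers, with a median log2 fold change of 1.29, where 6.52% of all genes were called and 3.71% rose. On library totals 15 rose and 2 fell (median 0.61), where 50.5% of all 12172 genes were called (233 higher and 5917 lower). The largest were Itih4, an inter-alpha-trypsin inhibitor heavy chain (log2 fold change 3.56 ± 0.29, adjusted p = 6.64e-06), the metallothionein Mt2 (3.35 ± 0.56) and the copper carrier Cp (2.94 ± 0.23). Itih4 measured 1450, 1130 and 1190 CPM in NP and 12300, 21100 and 11000 CPM in the 16 dpc livers, with no overlap. The fibrinogen chain gene Fgb rose by 1.47, the haem binder Hpx by 1.37, Lbp, which binds bacterial lipopolysaccharide, by 1.17, and the protease inhibitor Serpina3n by 1.80, while Crp was at 0.68 (adjusted p = 0.119). The iron hormone gene Hamp fell by 2.61 on the log2 scale (adjusted p = 0.0425). Without the second liver at 8 dpc that call was lost (adjusted p = 0.0545), and the list had 16 higher and 0 lower.

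In the second AAV8-null liver at 8 dpc, 16 of these 26 genes were the highest of the 3 livers of the group and 10 were higher in another. The share of all genes highest in this liver was not counted. The largest lead within the group was 1.64-fold, for Lrg1, beside 20.7-fold for Saa1 and 29.8-fold for Saa2 over all livers. Itih4 was at 3110 CPM there beside 2210 and 2120 in the other two 8 dpc livers, Fgb at 6450 beside 5140 and 3480, Hpx at 5780 beside 3610 and 3260, Crp at 609 beside 488 and 401, and Lrg1 at 882 beside 357 and 539. Serpina3k was instead highest in liver 3 (6130 CPM beside 5090), as was Vnn1 (282 beside 68.6), and Il1rn in liver 1 (13.7 beside 6.97). The whole list summed to 60800 CPM there and to 43300 to 51700 CPM in the other two.

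Of 10 negative acute-phase genes, which fall in classical inflammation, 6 rose and 1 fell at 16 dpc, beside the same 6.52% of all genes called. On library totals 5 rose and 3 fell, beside 50.5% (233 higher and 5917 lower of 12172 genes). Serpina6, the corticosteroid carrier, had the largest rise (log2 fold change 5.38 ± 0.80), then Alb (2.01 ± 0.25) and the lipoprotein gene Apoa1 (1.67 ± 0.34), while Ttr, the thyroxine carrier, fell by 1.41 on the log2 scale (adjusted p = 0.0214). In the AAV8-p21 livers at 16 dpc, Itih4 (3.23 ± 0.29) and Serpina6 (5.70 ± 0.81) were likewise higher than in NP.

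**Figure D4:**
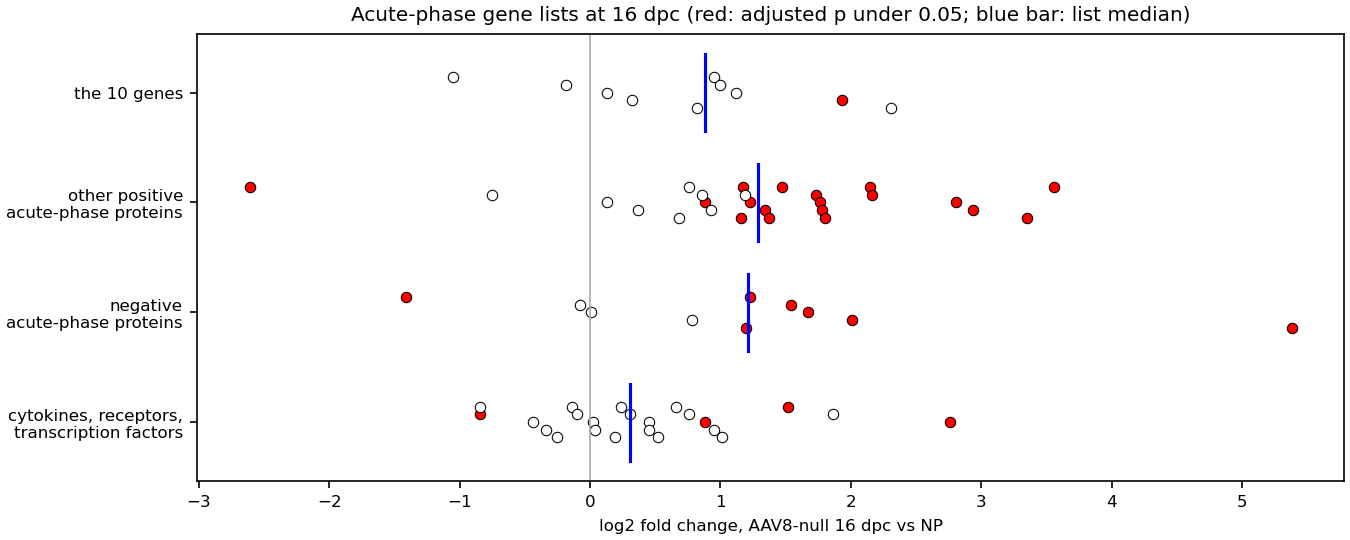
Log2 fold change from NP to 16 dpc in AAV8-null livers for every tested gene of 4 lists, with red for adjusted p under 0.05 and a blue bar at each list's median. The medians are 0.89 for the 10 genes, 1.29 for other positive and 1.22 for negative acute-phase genes and 0.31 for the signalling genes, beside −0.03 for all genes.

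Of 23 tested cytokine, receptor and transcription factor genes of the response, 3 rose and 1 fell from NP to 16 dpc in AAV8-null livers, beside 6.52% of all genes called. On library totals, whose median gene is at −0.70, 2 rose and 9 fell, beside 50.5% (233 higher and 5917 lower of 12172 genes). Socs3, the feedback inhibitor that Stat3 induces, rose by a log2 fold change of 2.76 ± 0.62 (adjusted p = 0.0165), Stat3 itself by 1.52 ± 0.23 (adjusted p = 0.00142) and the tumour necrosis factor receptor Tnfrsf1a by 0.88 ± 0.20, while the interleukin-1 co-receptor Il1rap fell by 0.84 on the log2 scale. Socs3 measured 4.85, 3.96 and 3.22 CPM in NP, 14.1, 19.5 and 5.36 CPM in the 8 dpc livers and 8.11, 23.2 and 50.5 CPM in the 16 dpc livers. The interleukin-6 receptor genes Il6ra (−0.10) and Il6st (1.01), the receptors Osmr (0.76) and Il1r1 (0.45) and the factors Cebpb (0.19) and Cebpd (0.95) did not pass. Il6 had at most 4 counts in any library, so its level was not measurable at this depth, and it had 0 counts in all 3 AAV8-null livers at 8 dpc. Between AAV8-p21 and AAV8-null, 0 genes of these 3 lists passed in edgeR at either stage, where 0.0739% of all genes passed at 16 dpc and 0.0246% at 8 dpc.

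Among 9 tested receptor and clearance genes for the 10 proteins, Cd36 rose (log2 fold change 2.26) and Scarb1, the lipoprotein receptor that also binds serum amyloid A, fell by 0.78 on the log2 scale from NP to 16 dpc in AAV8-null livers, where 6.52% of all genes were called. From 8 to 16 dpc in AAV8-null livers, 7 other positive acute-phase genes rose, led by Cd14 (2.97), Cp (2.71) and Itih4 (2.57), as did 6 negative ones, led by Serpina6 (5.84), Apoa1 (2.39) and Alb (2.23), and Cd36 (2.63), where 6.87% of all genes were called. Without the second liver at 8 dpc 6 positive and 6 negative genes rose (2.08% of all genes called). In AAV8-p21 livers over that interval 6 positive genes rose and Hamp fell, led by Cp (2.59) and Itih4 (2.43), 5 negative ones rose, led by Serpina6 (5.12) and Apoa1 (2.23), and Il6ra (1.63) and Cd36 (1.79) rose, where 3.32% of all genes were called. Hamp lost its call there without the second AAV8-null liver at 8 dpc (adjusted p = 0.0602).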

How the data were processed

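Poly(A) RNA of liver pieces was sequenced (TruSeq Stranded mRNA, single-end reads of 86 bases). Per the submitters' processing notes and methods, adapters were removed by cutadapt 1.14 and HISAT2 2.1.0 placed the reads on mm10. The authors deposited counts of uniquely mapped reads per protein-coding gene from HTSeq 0.12.4. Whether counting used strand was not given in the sources used here. Reads shared by near-identical copies are absent from such counts, which makes Saa1, Saa2, Orm1 and Orm2 partial.

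Genes were filtered with filterByExpr (minimum count 10). All 15 libraries were fitted in 1 model of 5 groups with edgeR 4.0.16 (TMM, quasi-likelihood test, 10 residual degrees of freedom), and p-values were adjusted by Benjamini-Hochberg over the 12172 genes tested. A gene was called at an adjusted p under 0.05. DESeq2 1.42.0 Wald tests, limma 3.58.1 voom with sample weights, other scalings, filters, sample sets and summed copies were alternatives. Log2 CPM for correlations used a pseudocount of 0.5. Intervals are 95% t intervals of the edgeR fit. On simulated counts for AAV8-null 16 dpc against NP, with 200 of 12036 genes changed 4-fold, edgeR recovered 98.0% and made 9 other calls. The simulated spread followed edgeR's trend with level, not the spread of each gene. It therefore does not measure how often such a change would be found in the 10 genes. Their standard errors in that comparison reached 1.09 in log2, for Saa2.

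Groups came from the sample titles. The columns of AAV8-p21 at 16 dpc carry numbers that differ from the labels, so these libraries were given to the group without a number. The members and gene lists were chosen with earlier results of these data known. Named genes were the 10 members, up to 3 called genes of each other list with the largest fold change, and a fixed set of receptors, factors and plasma proteins. Il1rap and Hamp, each the only gene of its list that fell, and Lrg1, Prtn3, Serpina3k, Vnn1 and Il1rn were named after their values were seen.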

Additional observations from a re-analysis of the deposited data

How the results depend on the processing

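Of the 30 fold changes followed (unadjusted p under 0.05 or groups without overlap), 325 of 325 values under other scalings, filters, tests and sample sets kept their direction, as did 210 of 211 with 1 library left out. The exception was Saa2 in AAV8-p21 against AAV8-null at 8 dpc, which ran from −4.27 to 0.27, with 0.27 reached without the second AAV8-null liver. The 30 were picked from these same data, so a kept direction is partly fixed by the choice and says nothing of size. With 1 library left out, Saa1 ran from −3.89 to −0.01 in that comparison. From 8 to 16 dpc in AAV8-null livers it ran from −4.05 to −0.17. On library totals 37 of 50 group means stayed within 1 SD.

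The number of the 10 genes called depended on the test, as did the share of all genes called, given in brackets. For AAV8-null 16 dpc against NP it was 1 (6.52%), 2 on library totals (50.5%), 2 by DESeq2 (9.28%), 6 by voom (13.2%), 4 by DESeq2 (7.54%) and 0 by edgeR (3.49%) on the compared groups alone, and 0 to 2 with 1 library left out (3.01% to 5.91%). For 8 dpc against NP it was 0 (0%), 4 by DESeq2 (0.574%), 8 by voom (15.2%), 2 by DESeq2 on the groups alone (0.582%), and 0 to 4 with 1 library left out, the 4 without the third 8 dpc liver (0.744%). For 16 against 8 dpc it was 2 (6.87%), 3 by DESeq2 (10.2%), 5 on library totals (53.5%), 0 to 3 with 1 library left out (2.08% to 10.3%), and 1 with DESeq2 size factors (6.79%), with at least 10 counts in every library (6.07%), by voom (14%) and on the groups alone by DESeq2 (8.46%) and edgeR (2.93%). For AAV8-p21 against AAV8-null at 8 dpc voom called 1 (0.863%). For AAV8-p21 at 16 against 8 dpc it was 0 (3.32%), 1 on library totals (Apcs, lower, 35.5%), 1 without a filter (2.54%), 2 by DESeq2 (6.16%), voom (14.9%) and DESeq2 on the groups alone (6.6%), and 0 to 2 with 1 library left out (1.29% to 3.74%). For AAV8-p21 at 16 dpc against NP it was 0 (3.81%), 3 by DESeq2 (6.07%), 6 by voom (19%), 6 by DESeq2 on the groups alone (5.26%), and 0 to 4 with 1 library left out, the 4 without the first NP liver (3.88%). It was 0 under every alternative for AAV8-p21 against AAV8-null at 16 dpc and for the difference between stages. The cause was not tested.

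With a replicate block on the 12 numbered libraries, 0 were called for 16 dpc against NP (5.44% of all genes), against 2 without the block (6.12%), and 1 for 16 against 8 dpc (5.43%), against 1 without it (6.25%). Same-numbered livers had a mean correlation of deviations of 0.006 over 18 pairs (−0.576 to 0.472). Differently numbered livers had −0.007 over 36 pairs (−0.551 to 0.614). With 3 livers a group, deviations from the group mean are tied to each other, so this cannot show whether the numbers were a pairing. No paired analysis was possible for comparisons with AAV8-p21 at 16 dpc because its columns carry other numbers. The unblocked fit of 12 libraries, the summed Saa1 and Saa2 without the second AAV8-null liver at 8 dpc and the fits without the second AAV8-null liver at 8 dpc in comparisons without its group were added after seeing the data. With 3 livers a group, the 95% interval of every one of the 10 genes spans over 1 log2 unit for AAV8-p21 against AAV8-null at 16 dpc.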
